A study of Rattus norvegicus with 24 samples.

Results

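Gucy1a1 (ENSRNOG00000012302) was 1 of 32883 genes in a table of RNA-seq counts from the rostral posterior hypothalamic (rPH) region of rats exposed to loud noise. It was selected by its own row in the table, for its level in the 4 treatment groups and for its relation to the other genes across rats. Both its group differences and these relations were known when it was selected, so they are given as descriptions, without a test. All rats were young adult Sprague-Dawley males, and no group had a genetic or drug treatment. Control rats (C) had 0 loud noise exposures, and the other groups had 1 exposure (AS, acute stress), 3 exposures (RS3) or 7 exposures (RS7), each a session of white noise. All were placed daily in the same type of chamber and were killed 24 h after their final session. Each group held 6 rats, of which the study retained 5, leaving out the library of 1 rat per group for low quality.

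Gucy1a1 encodes an alpha subunit of soluble guanylate cyclase, the enzyme that nitric oxide switches on. The enzyme pairs an alpha with a beta subunit, binds nitric oxide at a heme group, and turns GTP into the second messenger cyclic GMP, which acts on protein kinase G, on phosphodiesterases and on some ion channels. In the hypothalamus nitric oxide is made by neurons, several neurosecretory groups among them, and spreads to neighbouring cells that carry the cyclase. The 2 genes that matter most beside it below, Gad1 and Gad2, encode the enzymes that make the inhibitory transmitter GABA from glutamate, and Slc32a1 encodes the transporter that loads GABA into synaptic vesicles.

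Across all genes tested, Gad1 and Gad2 had the highest relation to Gucy1a1, so the promoters of these 3 genes are shown, as the 250 bases before each start site in RefSeq, build GRCr8. Capitals mark CCAAT boxes (CCAAT, or ATTGG on the opposite strand) and GC boxes (GGGCGG, or CCGCCC on the opposite strand). The Gucy1a1 promoter lies at chr2:169779624-169779873 on the minus strand, the Gad1 promoter at chr3:75777202-75777451 on the plus strand and the Gad2 promoter at chr17:89671468-89671717 on the plus strand.
Gucy1a1: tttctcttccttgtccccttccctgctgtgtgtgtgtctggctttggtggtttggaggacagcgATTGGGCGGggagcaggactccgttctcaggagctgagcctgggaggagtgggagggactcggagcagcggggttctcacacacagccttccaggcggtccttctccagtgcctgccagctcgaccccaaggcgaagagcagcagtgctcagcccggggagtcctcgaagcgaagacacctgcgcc
Gad1: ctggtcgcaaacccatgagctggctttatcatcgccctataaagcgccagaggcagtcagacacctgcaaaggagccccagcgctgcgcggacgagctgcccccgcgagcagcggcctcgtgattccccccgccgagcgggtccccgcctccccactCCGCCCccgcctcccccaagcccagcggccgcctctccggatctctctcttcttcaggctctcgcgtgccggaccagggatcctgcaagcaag
Gad2: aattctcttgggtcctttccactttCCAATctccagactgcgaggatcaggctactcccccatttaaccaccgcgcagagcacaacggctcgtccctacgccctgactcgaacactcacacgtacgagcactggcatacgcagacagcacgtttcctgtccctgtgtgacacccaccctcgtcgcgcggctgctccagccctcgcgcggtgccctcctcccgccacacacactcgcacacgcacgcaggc
The Gucy1a1 window held a CCAAT box on the opposite strand 186 bases before the start site, and an overlapping GC box 183 bases before it. The Gad1 window held 1 GC box, at 93 bases on the opposite strand, and the Gad2 window held 1 CCAAT box, at 225 bases. No motif was common to all 3 windows. A CCAAT box occurred in 34.02% and a GC box in 30.5% of 33469 promoter windows of the same length. Neither the homeodomain core TAATTA (4.86% of windows) nor the cAMP response element TGACGTCA (1.59%) was found in the 3 windows, with both strands searched. GC content was 63.2% for Gucy1a1, 68.4% for Gad1 and 62.0% for Gad2, against a median of 51.2% over all windows. A match or its absence describes these letters only.

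The 20 retained libraries held between 8087697 and 16947298 counts (median 12385781), and 16202 genes passed the filter on low counts. Gucy1a1 was counted 276 to 593 times per retained rat, so that counting error alone was 6.02% at the lowest and 4.11% at the highest count. Its biological coefficient of variation between rats of a group was 0.107, above that of 92% of the 1000 genes nearest to it in mean level.

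Gucy1a1 was lower in the rats with repeated exposures than in the C and AS rats. In counts per 1000000 counts, with library sizes scaled by the trimmed mean of M values (CPM), the C rats had 44.8 (rat 19), 39.1 (rat 21), 43.6 (rat 22), 29.5 (rat 23) and 47.7 (rat 24). The AS rats had 38.6 (rat 13), 48.4 (rat 14), 42.3 (rat 15), 36.4 (rat 16) and 41.7 (rat 17). Rat 23 was the single rat of these 2 groups below 36.4 CPM, and the other 9 lay above every rat with repeated exposures. The RS3 rats had 29.8 (rat 7), 25.9 (rat 9), 31.7 (rat 10), 32.1 (rat 11) and 33.8 CPM (rat 12). The RS7 rats had 31.3 (rat 2), 28.5 (rat 3), 28.4 (rat 4), 27.3 (rat 5) and 25.9 CPM (rat 6). The RS3 and RS7 values overlapped, and no AS rat overlapped either group.

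Group means were 41.0 ± 7.09 CPM in C, 41.5 ± 4.53 in AS, 30.7 ± 3.03 in RS3 and 28.3 ± 2.02 in RS7 (SD, n = 5 each). The order from highest to lowest was thus AS, C, RS3 and RS7. AS and C differed by 0.527 CPM, far less than the SD of either, and the AS rat was the lower in 14 of 25 pairs. From RS3 to RS7 the mean fell by 2.41 CPM, less than the SD of RS3, with the RS7 rat lower in 20 of 25 pairs. From C to RS3 it fell by 10.3 CPM, more than the SD of either group, and the RS3 rat was the lower in 21 of 25 pairs. For C against RS7 this held in 24 of 25 pairs, and for AS against RS3 and AS against RS7 in 25 of 25.

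**Figure D1:**
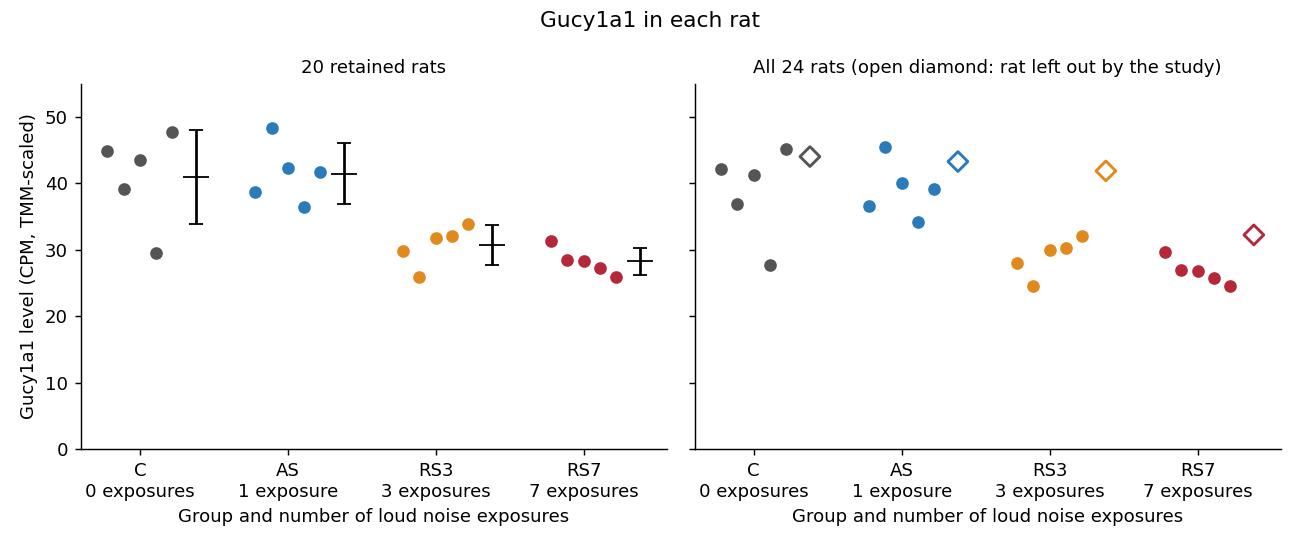
Gucy1a1 level in CPM (vertical axis) in each rat by group (horizontal axis); filled points are retained rats, bars are the mean ± SD of 5 rats, and open diamonds in the right panel are the 4 rats the study left out, scaled together with all 24. Every AS rat sat above every retained RS3 and RS7 rat, while 1 C rat, at 29.5 CPM, sat among them.

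As a percentage of the first group's mean, Gucy1a1 fell by 25.1% from C to RS3 and fell by 31.0% from C to RS7. It fell by 26.05% from AS to RS3 and fell by 31.9% from AS to RS7. The log2 fold change fitted with edgeR over the 4 groups was -0.42 (SE 0.104) for C vs RS3 and -0.53 (SE 0.104) for C vs RS7. It was -0.44 (SE 0.103) for AS vs RS3, -0.55 (SE 0.103) for AS vs RS7, -0.12 (SE 0.104) for RS3 vs RS7 and 0.02 (SE 0.102) for C vs AS. The comparisons with a common group use the same rats and are not independent of each other. Of the 16202 genes, 413 had a more negative log2 fold change in C vs RS3, 419 in C vs RS7, 249 in AS vs RS3 and 326 in AS vs RS7. In RS3 vs RS7 3034 genes and in C vs AS 9280 genes had a more negative one. Without C rat 23 the log2 fold changes from C became -0.52 for RS3 and -0.64 for RS7, and -0.08 for C vs AS.

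The 4 rats that the study left out had, with all 24 rats scaled together, 44.02 CPM in C (rat 20), 43.3 in AS (rat 18), 41.9 in RS3 (rat 8) and 32.2 in RS7 (rat 1). On that scale rats 8 and 1 lay above all retained rats of their groups, which reached from 24.6 to 32.1 in RS3 and from 24.5 to 29.7 in RS7. These values depended on the scaling. In CPM of the total counts alone, without that scaling, AS rat 18 had 23.8 (113 Gucy1a1 counts), below the retained AS rats at 37.7 to 50.4, and RS7 rat 1 had 23.6, below the retained RS7 rats at 25.8 to 31.7. RS3 rat 8 lay above its group on this scale too, at 37.0 against 25.7 to 34.5.

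The relation of Gucy1a1 to other genes was measured across the 20 retained rats with each group's mean removed, so that a difference between groups could not produce it. Each point is 1 rat, and 2 genes of a rat share its library, its scaling factor and its tissue block. Over the other 16201 genes tested the median Pearson r was -0.01, with 90% of the genes between -0.40 and 0.43. An r of at least 0.7 was found for 38 genes, of at least 0.8 for 8 genes and of at least 0.9 for 2 genes, Gad1 and Gad2. At the other end 12 genes had an r of -0.7 or lower.

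Gad1 had r = 0.91 (Spearman's rho = 0.87) and Gad2 r = 0.91 (rho = 0.85). The relation was mutual: seen from Gad1, Gucy1a1 had the highest r of 16201 genes, and seen from Gad2 it was again the highest. Gad1 and Gad2 had r = 0.88 with each other, and the small gap to 0.91 was not tested. The 2 rats whose Gucy1a1 deviation from the group mean lay farthest from the median deviation were C rat 23 and RS3 rat 9. Leaving out these 2 rats gave r = 0.87 for Gad1 and r = 0.79 for Gad2. With all 24 rats r was 0.91 for Gad1 and 0.94 for Gad2, and when single rats were left out it stayed between 0.89 and 0.94 for Gad1 and between 0.84 and 0.94 for Gad2. Slc32a1 followed less closely, with r = 0.67 (rho = 0.64; 0.58 without the 2 rats), at position 59 from the top, and from its side Gucy1a1 ranked 77.

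**Figure D2:**
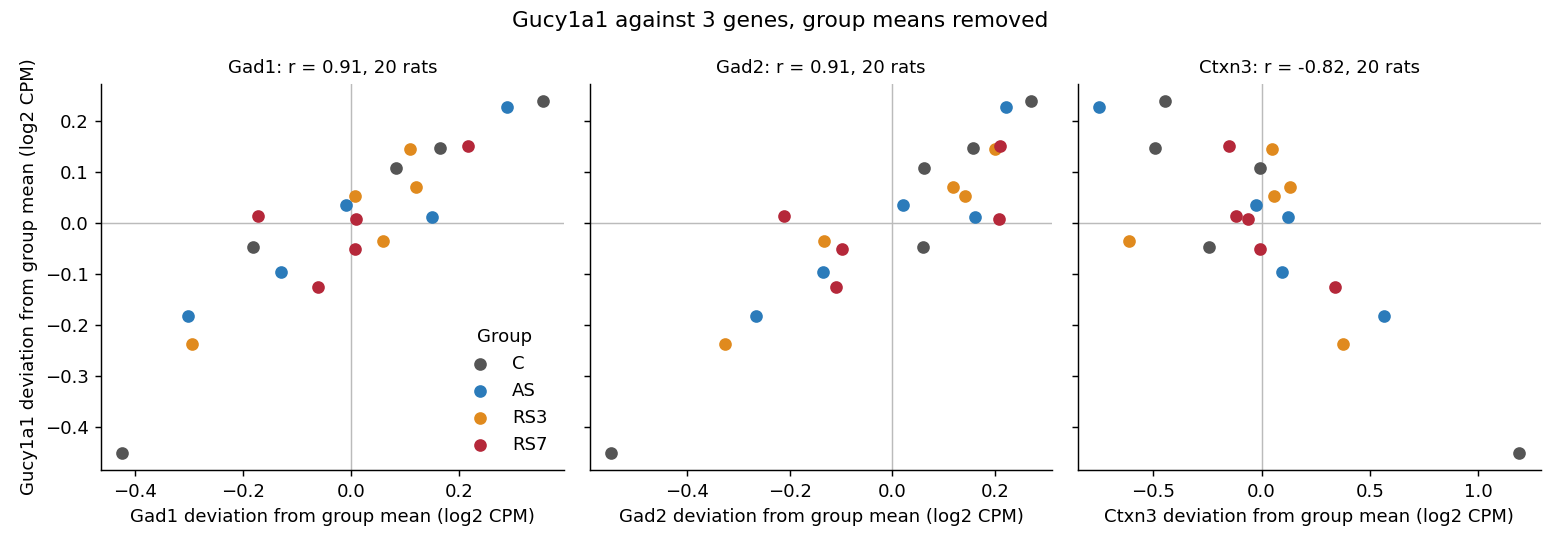
Each rat's deviation from its group mean in log2 CPM, for Gucy1a1 (vertical axis) against Gad1, Gad2 and Ctxn3 (horizontal axes), in the 20 retained rats coloured by group. Points rise along a line for Gad1 and Gad2 (r = 0.91 each) and fall for Ctxn3 (r = -0.82), where C rat 23 lies far to the lower right.

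Gad1 is given by rat to set it beside Gucy1a1. Gad1 was 283 (rat 19), 223 (rat 21), 268 (rat 22), 188 (rat 23) and 323 CPM (rat 24) in C, and C rat 23 and C rat 24 were thus the lowest and the highest of their group for both genes. In AS it was 245 (rat 13), 327 (rat 14), 266 (rat 15), 217 (rat 16) and 297 CPM (rat 17), with rats 16 and 14 the extremes for both genes. In RS3 it ran from 159 CPM in rat 9, also the lowest for Gucy1a1, to 213 in rat 11, whereas Gucy1a1 was highest in rat 12. In RS7 it ran from 146 in rat 3 to 192 in rat 2, and Gucy1a1 was also highest in rat 2 but lowest in rat 6. For every 100 counts of Gad1 there were 16.0 ± 1.02 of Gucy1a1 in C, 15.5 ± 1.07 in AS, 15.6 ± 0.715 in RS3 and 17.1 ± 1.34 in RS7 (SD, n = 5 each). The means of this ratio lay between 15.5 and 17.1, while the mean of Gucy1a1 itself fell by 31.0% from C to RS7.

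Because both counts come from the same library, the ratio does not depend on the scaling. In the left-out rats it was 16.4 in rat 20 of C and 16.92 in rat 18 of AS. It was 17.1 in rat 8 of RS3 and 16.6 in rat 1 of RS7. All lay within the 14.0 to 19.5 of the retained rats of all groups together. Within their own groups rats 18 and 8 lay above the retained rats, which reached 16.8 in AS and 16.2 in RS3. The level of AS rat 18 was also the one that moved most with the scaling. Per 100 counts of Gad2 there were 8.55 ± 0.461, 9.00 ± 0.533, 9.30 ± 0.564 and 9.03 ± 0.983 counts of Gucy1a1 in C, AS, RS3 and RS7. The left-out rats had 7.58, 9.49, 7.83 and 7.51 in the same order. Those of C and RS7 lay below all 20 retained rats (lowest 7.82), and that of RS3 lay below the retained rats of its group (lowest 8.74). Per 100 counts of Slc32a1 the means ran from 39.1 ± 5.14 in RS3 to 43.6 ± 4.695 in C, and AS rat 18 stood apart with 25.3. Gene lengths were not divided out, so the ratios compare rats and not the abundance of the transcripts.

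**Figure D3:**
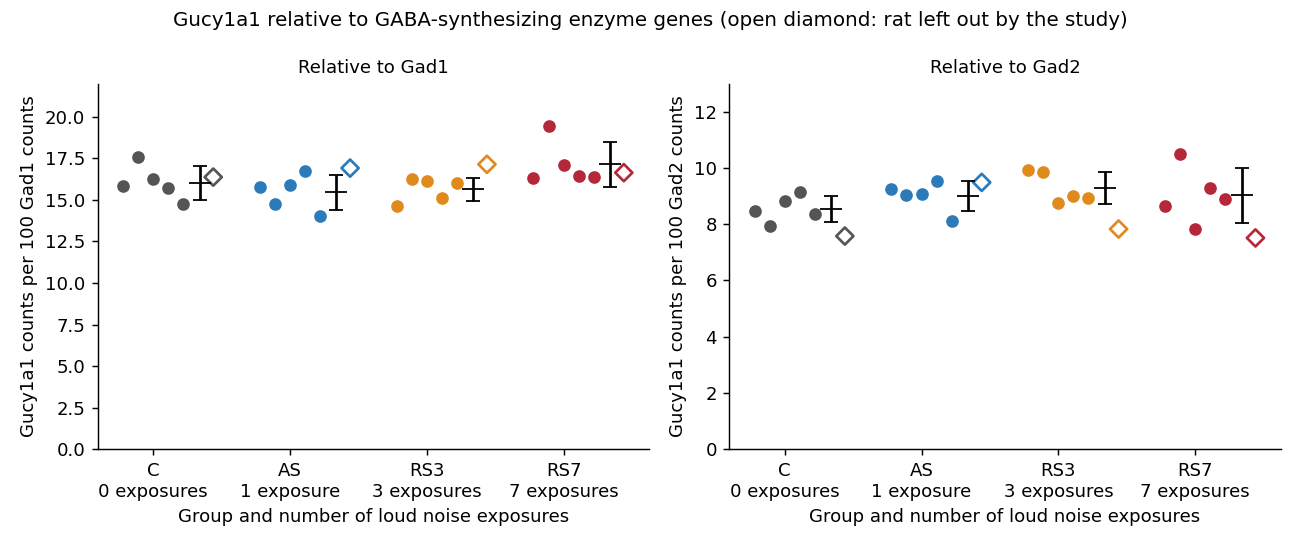
Gucy1a1 counts per 100 counts of Gad1 (left) or Gad2 (right) on the vertical axes, in each rat by group; filled points are retained rats, bars the mean ± SD of 5 rats, and open diamonds the rats left out by the study. Group means lie between 15.5 and 17.1 for Gad1 and between 8.55 and 9.30 for Gad2, and 1 RS7 rat stands at 19.5 for Gad1.

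Gad1 and Gad2 changed between the groups by amounts near those of Gucy1a1. In C vs RS7 the log2 fold change was -0.63 (SE 0.132) for Gad1 and -0.61 (SE 0.142) for Gad2, beside -0.53 for Gucy1a1. In AS vs RS7 it was -0.71 (SE 0.132) for Gad1, -0.55 (SE 0.142) for Gad2 and -0.52 (SE 0.133) for Slc32a1, beside -0.55 for Gucy1a1. In the edgeR quasi-likelihood fit over all genes, Gad1 passed in AS vs RS7 (adjusted p = 0.0128), where 1.67% of all genes were called. It did not pass in C vs RS7 (adjusted p = 0.054), where 0.148% were called. In the same fit Gad2 and Slc32a1 did not pass in AS vs RS7 (adjusted p = 0.0561 and 0.0541). The study's own DESeq2 fit listed Gad1, Gad2 and Slc32a1 as lower in C vs RS7. Gad2 was also among the genes it called in C vs RS3 and in AS vs RS7. The study's in situ hybridization in other rats also gave lower Gad1 after 7 exposures, while Slc32a1 did not reach significance there. In a tissue block fewer cells of a type and less RNA per cell cannot be told apart.

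Symbols were known for 734 of the 16201 genes, all of them listed by the study as differentially expressed in these rats. Of the 100 genes with the highest r, 18 had a symbol, so most of the closest genes cannot be named. Among genes with a symbol, the next highest after Gad1 and Gad2 were Islr2, an immunoglobulin and leucine-rich repeat membrane protein, with r = 0.84 (0.59 without the 2 rats), and Ubash3b, a tyrosine phosphatase, with r = 0.79 (0.64). Gpc3, a cell-surface heparan sulfate proteoglycan, had r = 0.76 (0.55). Oxt, the hormone oxytocin, had r = 0.73 (0.54), and Sim1, a transcription factor of neurosecretory hypothalamic neurons, had r = 0.72 (0.49). Slc35f1 completed these 8 with r = 0.72 (0.35). Only Gad1 and Gad2 of the 8 kept an r above 0.7 without the 2 rats. The genes were chosen for a high r and the rats for an extreme Gucy1a1 deviation, so a fall was favoured. Genes that started nearer 0.7 passed below it more easily, so this does not set Gad1 and Gad2 apart. The position of Islr2 was 4 among all genes, so a gene without a symbol stood between it and Gad2. Oxt stood at position 33, Sim1 at 35 and Slc35f1 at 36.

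At the low end Ctxn3, a small neuronal membrane protein, had the most negative r of all genes, -0.82 (-0.58 without the 2 rats). Its level was 27.6 CPM in C rat 23 against 8.48 to 11.9 CPM in the other retained C rats, and leaving out single rats moved its r between -0.90 and -0.63. Edil3, an extracellular matrix protein, had r = -0.72 (-0.41), and Epha8, an ephrin receptor, r = -0.71 (-0.35). Fzd5, a Wnt receptor, had r = -0.68 (-0.32), and the adhesion receptor Adgrl2 had r = -0.66 (-0.43). Secisbp2l had r = -0.63 (-0.23), the potassium channel Kcna2 had r = -0.62 (-0.30), and Cdr2 had r = -0.61 (-0.20). These 8 were the lowest among genes with a symbol only. After Ctxn3, their positions from the lowest of all genes ran from 7 (Edil3) to 60 (Cdr2). With all 24 rats the r of Kcna2 was -0.12 and that of Cdr2 -0.05. All 8 moved toward 0 by at least 0.23 without C rat 23 and RS3 rat 9, and Gad1 by 0.05. That direction was favoured by the way genes and rats were chosen.

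**Figure D4:**
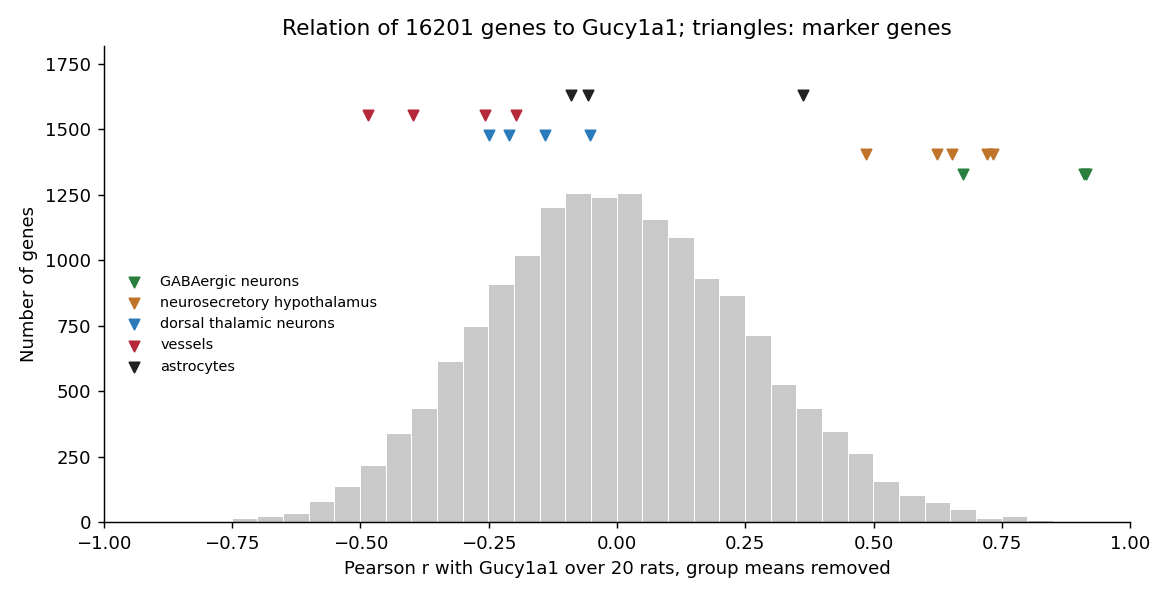
Number of genes (vertical axis) by Pearson r with Gucy1a1 over 20 rats with group means removed (horizontal axis), with triangles for the marker genes of 5 cell classes, drawn at arbitrary heights. Gad1 and Gad2 lie farthest right, at 0.91, while the dorsal thalamic and vessel markers lie left of 0.

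Lists of cell type markers were set beside Gucy1a1 by the mean log2 CPM of their genes, with group means removed. The 3 GABAergic neuron genes (Gad1, Gad2 and Slc32a1) had r = 0.90 (rho = 0.86; 0.81 without the 2 rats). The neurosecretory list, with Oxt, Avp (vasopressin), Trh, Gal (galanin) and Sim1 identified, had r = 0.72 (0.50). The dorsal thalamic list, with Lef1, Rora, Ntng1 and Slc17a6, had r = -0.17 (0.14), and the astrocyte list, with Aqp4, Slc1a2 and Slc1a3, had r = 0.01 (-0.07). The vessel list, with Plvap, Col4a1, Col4a2 and Heg1, had r = -0.65 (-0.34). None of the 4 oligodendrocyte markers had an identifier. The genes identified were ones the study had listed from these same rats, so the lists are incomplete and not independent.

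The marker sums by group were as follows. The summed GABAergic genes lay between 587 and 996 CPM in C, 686 and 978 in AS, 490 and 677 in RS3, and 478 and 639 in RS7. The neurosecretory sum ran from 31.2 to 299 CPM in C, from 50.5 to 339 in AS, from 16.86 to 156 in RS3 and from 9.93 to 40.4 in RS7. The sum of the dorsal thalamic list ran from 747 to 997 CPM in C and from 785 to 1092 in AS. It ran from 822 to 1198 CPM in RS3 and from 1074 to 1406 in RS7. Slc17a6 was the largest part of that sum, with means of 578 CPM in C and 753 in RS7. The sum thus mainly followed this gene, whose restriction to the thalamus was not tested. The astrocyte sum overlapped between all groups, at 1888 to 2295 CPM in C, 1751 to 1945 in AS, 1790 to 1895 in RS3 and 1751 to 2033 in RS7. So did the vessel sum, at 173 to 209 CPM in C and 180 to 199 in RS7. By edgeR 1 GABAergic gene, Gad1, was called lower in AS vs RS7, against 0.481% of all genes, and no neurosecretory gene passed. Rora, Slc1a2 and Plvap, 1 gene each of the thalamic, astrocyte and vessel lists, were called higher there, against 1.19% of all genes. The astrocyte and vessel lists were split in that comparison. Plvap had a log2 fold change of 0.53 and Heg1 of 0.32, against -0.14 for Col4a1 and -0.28 for Col4a2. Slc1a2 had 0.42 and Aqp4 0.04, against -0.13 for Slc1a3. The part of these markers in the lower Gucy1a1 of RS3 and RS7 was not tested. The log2 of the total count had r = -0.32 with Gucy1a1 (0.24 without the 2 rats), and the percentage of all counts taken by the 10 top genes had r = 0.02 (-0.37).

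The 100 genes with the highest r, all at 0.64 or above, were followed into the group comparisons. Membership used the rats' deviations from their group means, but the same libraries, and no test was made on the set. Genes chosen for a shared r with 1 gene also vary together across rats. The counts below are therefore not counts of independent observations, and the shares of all genes beside them are a description only. In AS vs RS7 93 of the 100 had a negative log2 fold change, with a median of -0.22, against 53.0% and -0.01 over all 16201 genes other than Gucy1a1, the set included. In C vs RS7 this was so for 92 (median -0.21), in C vs RS3 for 91 (median -0.19) and in AS vs RS3 for 88 (median -0.18), while in C vs AS it was 49 (median 0.00). In RS3 vs RS7 65 were negative (median -0.05). The negative share was thus high in the same 4 comparisons in which the mean of Gucy1a1 fell by 25.1% or more.

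At an unadjusted p of 0.05 in edgeR, 52 of these 100 genes were lower in AS vs RS7 and 0 higher, against 7.88% lower and 8.34% higher of all genes tested. After adjustment 4 were called lower in AS vs RS7, against 0.481% of all genes. In C vs RS7 0 were called lower, against 0.037% of all genes, with 48 lower at an unadjusted p of 0.05, against 9.04%. DESeq2 called 11 lower, against 0.822% of the genes it tested, and limma-voom 5, against 0.407%. The 100 genes with the lowest r, all at -0.57 or below, went the other way. Of these 26 had a negative log2 fold change in AS vs RS7 (median 0.10), 31 in C vs RS7 (median 0.08), 17 in AS vs RS3 (median 0.10) and 59 in C vs AS (median -0.02). Of the same genes 6 were called higher in AS vs RS7, against 1.19% of all genes, and 1 in C vs RS7, against 0.111%. In AS vs RS7 DESeq2 called 16 of the first set lower, against 1.19%, and 14 of the second higher, against 2.71%, and limma-voom called 30 and 17, against 2.08% and 3.28%. Calls over all genes changed as well when single rats were left out. Without C rat 23 the genes of the first set called lower were 15 in AS vs RS7, against 0.601% of all genes, and 19 in C vs RS7, against 0.637%. Those of the second set called higher were then 10 in AS vs RS7, against 1.25%, and 9 in C vs RS7, against 0.84%. Without RS7 rat 4 the first set had 13 called lower in C vs RS7, against 1.7%.

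**Figure D5:**
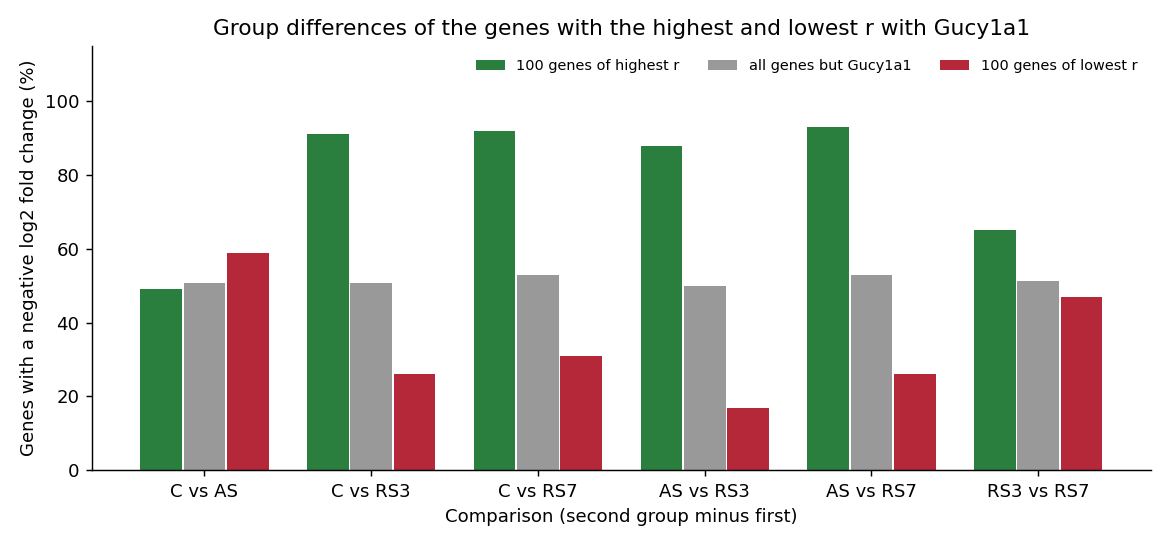
Percentage of genes with a negative log2 fold change (vertical axis) in each of the 6 comparisons (horizontal axis), for the 100 genes with the highest r with Gucy1a1, the 100 with the lowest r and all genes but Gucy1a1, the 2 sets included. The first set reaches 88 to 93% in the 4 comparisons of C or AS with RS3 or RS7 and 49% in C vs AS, and the second set falls to 17 to 31% in those 4.

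Of 50 other genes listed for nitric oxide and cyclic GMP signalling, 7 could be identified, and all 7 came from the study's own gene lists from these rats, so their counts are not independent evidence. The beta subunit and the nitric oxide synthases were not among them and are not analysed here. In AS vs RS7 2 of the 7 were lower by edgeR and 0 higher, against 0.481% lower and 1.19% higher of all genes, with 5 lower and 2 higher at an unadjusted p of 0.05, against 7.88% and 8.34%. Npr2, the natriuretic peptide receptor that makes cyclic GMP at the membrane, was 49.6 ± 4.07 CPM in AS and 37.2 ± 5.06 in RS7, with 47.8 ± 4.93 in C and 47.7 ± 5.45 in RS3 (SD, n = 5 each). Its log2 fold change in AS vs RS7 was -0.41 (SE 0.0904, edgeR adjusted p = 0.023). Hcn3, a cation channel that opens on hyperpolarization and belongs to a family with a cyclic nucleotide site, was 18.2 ± 1.21 CPM in AS and 13.9 ± 0.793 in RS7. It gave -0.39 (SE 0.0746, edgeR adjusted p = 0.0102).

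Neither gene followed Gucy1a1 closely between rats of a group, with r = -0.07 for Npr2 and r = 0.31 for Hcn3 (-0.46 without the 2 rats). In RS3 vs C Npr2 had a log2 fold change of 0.00 and Hcn3 of 0.09, where Gucy1a1 had -0.42. Ass1, which recycles citrulline into the arginine that nitric oxide synthase uses, was closer to Gucy1a1 with r = 0.66 (0.38), and its log2 fold change in AS vs RS7 was -0.36 (edgeR adjusted p = 0.0902). The arginine transporter Slc7a3 had -0.30 and the peptide hormone gene Nppa -0.80 in that comparison. Kcnma1, a calcium-activated potassium channel that protein kinase G can act on, had 0.45 (edgeR adjusted p = 0.0529). In the other 5 comparisons edgeR called 0 of the 7, against 0.148% of all genes in C vs RS7 and 0% in the other 4. At an unadjusted p of 0.05 the counts higher and lower were 2 and 0 in C vs AS, 1 and 0 in C vs RS3, 2 and 4 in C vs RS7, 0 and 1 in AS vs RS3 and 0 and 4 in RS3 vs RS7. Of all genes, 4.59% were higher and 5.44% lower at that threshold in C vs AS, 7.89% and 8.39% in C vs RS3, 8.83% and 9.04% in C vs RS7, 2.36% and 2.25% in AS vs RS3, and 3.69% and 3.83% in RS3 vs RS7. DESeq2 called 2 of the 7 in C vs RS7, against 1.91% higher and 0.822% lower of its genes, and 0 in the other 4, where it called 0.378% higher and 0.27% lower of its genes in C vs RS3, 0.0109% and 0.00547% in AS vs RS3, and 0% in C vs AS and RS3 vs RS7. Limma-voom called 0 of the 7 in all 5, against 0.605% higher and 0.407% lower of all genes in C vs RS7 and 0% in the other 4.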

How the data were processed

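Total RNA from rPH tissue blocks of 24 rats was sequenced as paired-end poly(A) libraries. Per the submitters' processing notes the authors trimmed reads with Trimmomatic (0.36) and aligned them with HISAT2 (2.0.5) to rn6, counted them per Ensembl gene with featureCounts, and deposited 1 table of raw counts. Counting by strand is not given in the sources used here, so overlapping genes may share reads. The 20 retained rats were those, 1 left out per group, whose recomputed mean matched the printed mean of 808 of 808 listed genes (1296 sets tried, next best 0). The table holds no symbols, and the reference matched 0 identifiers, so symbols came from the study's gene lists (735 genes). Counts were analysed in R (4.3.3) with edgeR (4.0.16): filterByExpr with a minimum count of 10, TMM scaling, a quasi-likelihood fit of 4 groups and Benjamini-Hochberg adjustment at 0.05. DESeq2 (1.42.0), limma (3.58.1), other filters, thinning and leaving out rats were alternatives, and the fits were tested on simulated data. Relations were Pearson r of log2 CPM (prior count 2), group means removed. Named genes were Gucy1a1, listed pathway and marker genes with an identifier, and the 8 highest and 8 lowest by r with a symbol. The gene and lists were chosen with earlier results of these data known. Replicates were separate rats. A few listed genes are not reported here.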

Additional observations from a re-analysis of the deposited data

Results flagged for a closer look

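The number of Gucy1a1 counts per 100 Gad1 counts was 19.5 in RS7 rat 3, against 16.3 to 17.1 in the other 4 retained RS7 rats, a gap of 0.757 of the group's range. It was the 1 rat to stand apart among 40 groups of 5 rats examined in this way, where chance sets about 1 in 20 groups apart. In that rat Gad1, at 146 CPM, was the lowest of the 20, and Gucy1a1, at 28.5 CPM, was near its group mean.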

How the results depend on the processing

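No paired analysis was possible because rat numbers are not shared between groups. Under 7 other settings (size factors, DESeq2, limma-voom, no filter, 24 rats, only the 2 groups, thinning) the log2 fold change of Gucy1a1 ran from -0.53 to -0.51 in C vs RS7, -0.56 to -0.52 in AS vs RS7, -0.44 to -0.35 in C vs RS3, -0.46 to -0.35 in AS vs RS3, -0.17 to -0.07 in RS3 vs RS7 and 0.00 to 0.03 in C vs AS. With 1 rat left out it ran from -0.64 to -0.47, -0.60 to -0.49, -0.52 to -0.35, -0.48 to -0.37, -0.17 to -0.08 and -0.08 to 0.08 in that order. With the mean log2 CPM of Gad1, Gad2 and Slc32a1 as a covariate, added after seeing the data, it was -0.10, -0.10, -0.12 and -0.11 in the first 4. These genes were chosen for, or share, a high r with Gucy1a1 and had like fold changes, so a value nearer 0 was fixed by the construction, and that fit called 0 of all genes in C vs RS7 and AS vs RS7. The pathway genes called in AS vs RS7 were 6 with DESeq2, against 2.71% higher and 1.19% lower of all its genes. With limma-voom 4 were called, against 3.28% higher and 2.08% lower. They were 4 with only the 2 groups compared, 0 with the covariate and 1 to 5 with 1 rat left out. In C vs RS7 the pathway genes called were 2 with DESeq2, against 1.91% higher and 0.822% lower. With 1 rat left out 0 to 2 were called there. Of the 100 genes of highest r, those called lower in C vs RS7 were 11 with DESeq2, against 0.822% of its genes. Limma-voom called 5, against 0.407%. The count was 3 after thinning and 1 each with DESeq2 size factors, without a filter and with all 24 rats. It was 0 to 19 with 1 rat left out. In AS vs RS7 those called lower were 16 with DESeq2, against 1.19%, and 30 with limma-voom, against 2.08%. The count was 12 with only the 2 groups, 0 with the covariate and 1 to 15 with 1 rat left out. Of the 100 genes of lowest r, those called higher in C vs RS7 were 7 with DESeq2, against 1.91% of its genes. Limma-voom called 2, against 0.605%. The count was 2 each without a filter and after thinning, 0 with the covariate and 0 to 9 with 1 rat left out. In AS vs RS7 those called higher were 14 with DESeq2, against 2.71%, and 17 with limma-voom, against 3.28%. The count was 1 with all 24 rats, 10 with only the 2 groups and 0 with the covariate. It was 0 to 10 with 1 rat left out. Shares of all genes called are not given for size factors, no filter, 24 rats, only the 2 groups, thinning or most rats left out. Calls over all genes also changed between fits, with 0.037% lower in C vs RS7 by edgeR and 1.7% without RS7 rat 4. The counts under those settings therefore do not show whether the list and sets changed apart from all genes. Of the r of 16 named genes, 16 moved by more than a jackknife standard error over rats (0.0453 for Gad1, 0.345 for Fzd5) without the 2 extreme rats, 7 with all 24 rats and 4 with group means kept, and 0 changed sign. At 276 to 593 counts per rat, depth limits Gucy1a1 less than the spread between rats does.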
